A study of Mus musculus with 2 samples.

Results

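Histone genes were read in the polysomes of the neonatal mouse brain as 80 of the 45578 genes in the table of footprint counts. The members were chosen by gene symbol, as names of the Hist1 to Hist4 clusters, the H2af and H3f3 families, H1f0 and H1fx that have at least 1 transcript annotated as protein coding. They comprised 67 clustered genes and 13 variant genes outside the clusters, with 108 annotated transcripts. The study isolated polysomes from whole brains of control mice at postnatal day 5 and sequenced the fragments of 25 to 35 nucleotides that ribosomes protect from RNase I. Both animals were Smn+/-; SMN2tg/0 on the FVB background, so the controls themselves carried a single working copy of mouse Smn together with a human SMN2 transgene. They formed 1 group of 2 biological replicates, and no other group was analysed here.

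Core histones of types H2A, H2B, H3 and H4 form the nucleosome, and linker histone H1 binds the DNA where it enters and leaves. Most clustered genes are the replication-dependent supply. These genes have no introns and are transcribed mainly in S phase. Their mRNAs end in a stem-loop bound by Slbp in place of a poly(A) tail. Cutting these 3' ends needs the U7 small nuclear ribonucleoprotein, which is assembled by the SMN complex. Variant genes such as H3f3a, H3f3b and H2afz give ordinary spliced, polyadenylated mRNAs, are made outside S phase, and supply chromatin in cells that no longer divide, such as neurons.

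The libraries held 1866831 footprints for replicate 1 and 5261878 for replicate 2, and levels are given as CPM, the count of a gene scaled to a common library total. Brain markers were abundant: the neuronal genes Map2 and Tubb3 had 1456 ± 47.2 and 1102 ± 452 CPM (SD, n = 2), while Alb and Umod, of liver and kidney, had no footprint in either library. Of 6 genes of other tissues, the skeletal actin gene Acta1 was the 1 above 5 CPM, at 62.6 ± 17.6 CPM, and it has near-identical relatives. S-phase and proliferation genes were present, with all 26 listed genes detected and a summed share of 0.0881% ± 0.0160 of the footprints, led by Pcna at 131 ± 20.7 CPM. In whole tissue, fewer cells of a type and less RNA per cell cannot be told apart.

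Clustered genes carried most of the histone footprints. All 80 genes together took 0.912% of the footprints in replicate 1, with an exact 95% interval for counting error from 0.898 to 0.926. In replicate 2 they took 0.723%, with an interval from 0.716 to 0.730. Clustered genes had 13982 and 30553 footprints, which were 0.749% and 0.581% of the libraries, or 0.665% ± 0.119 (SD, n = 2). Variant genes had 3042 and 7489 footprints, which were 0.163% and 0.142%, or 0.153% ± 0.0146. With all transcripts summed, the ratio of clustered to variant footprints was 4.60 in replicate 1 and 4.08 in replicate 2. Both shares were lower in replicate 2 beyond counting error, and the clustered share more so in proportion. Most clustered footprints came from the large Hist1 cluster on chromosome 13, whose 55 genes took 0.567% ± 0.0982 of the libraries. The 9 genes of Hist2, on chromosome 3, took 0.0656% ± 0.0109. The 2 genes of Hist3, on chromosome 11, took 0.0210% ± 0.00653, and the single Hist4 gene, on chromosome 6, took 0.0111% ± 0.00335. Taking only the most covered transcript of every gene in the table, which also lowers the total, put the clustered share at 1.23%.

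Levels of different genes were compared per codon, as the CPM of a gene divided by the codons of its longest coding sequence. Summed over all members of a type and all transcripts of a gene, the core histones lay close together. H4 had 18.7 CPM per codon in replicate 1 and 12.4 in replicate 2, or 15.6 ± 4.43 (SD, n = 2). H2A had 16.8 and 13.8, or 15.3 ± 2.15. H3 had 14.4 and 12.1, or 13.3 ± 1.61. H2B had 12.5 and 11.4, or 11.9 ± 0.808. The highest core type exceeded the lowest by 1.497 times in replicate 1 (H4 over H2B) and by 1.21 times in replicate 2 (H2A over H2B). Within each library, with all transcripts summed, H2A exceeded H3 by 1.17 and 1.14 times. H3 exceeded H2B by 1.15 and 1.07 times, while H4 and H2A changed places between the libraries. The mean of each type lay within the SD around the mean of its next higher neighbour, though not always the reverse. That SD over the replicates holds the shift that the types share, and the differences between types were not tested. The order of the core types also rests on the sums over transcripts. On coding transcripts alone, H3f3a and H3f3b had 1.73 and 1.25 CPM per codon in replicate 2. With all transcripts they had 2.00 and 2.22 there, and the lower values put H3 below H2B in that library. Linker histone H1 stood clearly below, at 5.66 and 3.89 CPM per codon, or 4.78 ± 1.25. It reached 0.363 of the mean core level in replicate 1 and 0.313 in replicate 2. As background, a nucleosome holds equal numbers of each core histone and fewer H1 molecules.

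**Figure D1:**
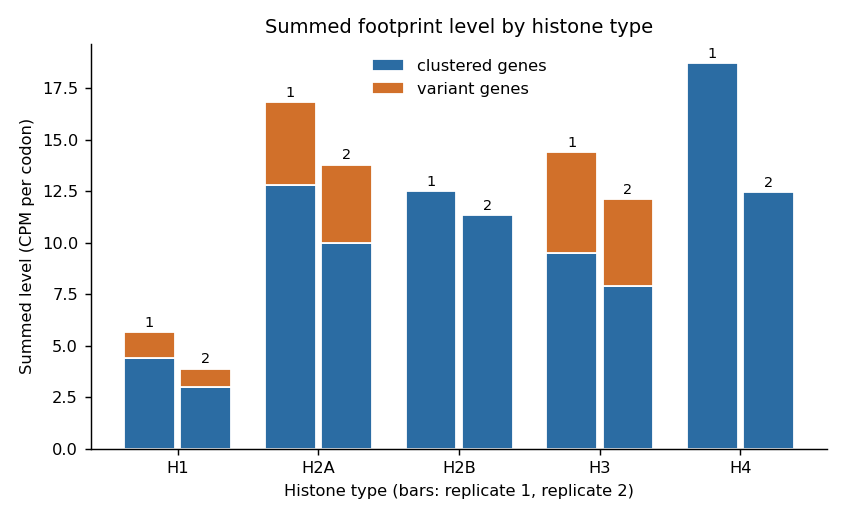
Footprint level in CPM per codon (y axis), summed over the genes of each histone type (x axis), with 1 bar per replicate, clustered genes in blue and variant genes in orange. With all transcripts of a gene summed, the core types H2A, H2B, H3 and H4 lie between 11.4 and 18.7 and H1 between 3.89 and 5.66. The variant portion is then largest for H3 and H2A.

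The 13 clustered H4 genes, all with a coding sequence of 312 nucleotides, were the most uniform group. Their counts ran from 252 to 362 in replicate 1 (median 264) and from 459 to 594 in replicate 2 (median 517). The coefficient of variation across these genes was 12.1% and 7.53%, against 5.98% and 4.37% for counting noise alone, so they differed somewhat more than counting noise. Hist1h4h (ENSMUSG00000060981) was the highest in both libraries, with 362 and 594 footprints, or 153 ± 57.3 CPM. Hist1h4d followed with 326 and 564, Hist1h4a with 302 and 569, and Hist2h4 with 301 and 516. Hist4h4, which lies alone outside the main clusters and has an annotated 3' untranslated region of 2515 nucleotides, had 252 and 461 footprints, inside the range of the others. The ratio of the highest to the lowest H4 gene was 1.44 in replicate 1 and 1.29 in replicate 2.

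Clustered H3 genes were also close to each other. The counts of 12 genes ran from 140 to 254 in replicate 1 and from 370 to 539 in replicate 2, with coefficients of variation of 18.8% and 12.7%. Hist1h3e had 254 and 507 footprints (116 ± 28.1 CPM), Hist1h3f 236 and 539 (114 ± 17.0 CPM), Hist1h3c 242 and 515 (114 ± 22.5 CPM) and Hist1h3b 231 and 534 (113 ± 15.7 CPM). The 3 genes of the Hist2 cluster were the 3 lowest in both replicates. Hist2h3b had 158 and 370 footprints, Hist2h3c1 140 and 398, and Hist2h3c2 157 and 382.

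Among 18 clustered H2A genes other than the testis gene Hist1h2aa, counts ran from 85 to 225 in replicate 1 and from 223 to 440 in replicate 2, with medians of 174.5 and 387. The highest by mean level were Hist3h2a (225 and 417 footprints, 99.9 ± 29.2 CPM), Hist1h2ap (196 and 440, 94.3 ± 15.1 CPM), Hist1h2ak (205 and 402, 93.1 ± 23.6 CPM) and Hist1h2ae (193 and 431, 92.6 ± 15.2 CPM). Hist2h2ab stood apart at the low end with 85 and 223 footprints, while all other genes of this set had at least 151 and 335. The paired genes Hist2h2aa1 and Hist2h2aa2, whose coding and 3' untranslated lengths are equal, had 182 and 172 footprints in replicate 1 and 383 and 359 in replicate 2.

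In the H2B group, the number of annotated transcripts moved with the level of a gene. Setting aside Hist1h2ba and Hist2h2be, which had far lower counts, 11 genes had 1 coding transcript and 4 genes had 2. The genes with 1 had 138 to 254 footprints in replicate 1 and 346 to 466 in replicate 2, with medians of 153 and 381. Those with 2, Hist1h2be, Hist1h2bq, Hist1h2br and Hist1h2bp, had 214 to 320 and 663 to 874, with medians of 299.5 and 790.5. Per transcript, the same 4 genes had medians of 150.5 and 399, close to the medians of the genes with 1 transcript; both Hist1h2bp transcripts lay below the range of those genes. Hist1h2be thus had the highest H2B level at 169 ± 3.76 CPM, with 150 and 168 footprints on its coding transcripts in replicate 1. Hist1h2bq had 158 ± 7.10 CPM, Hist1h2br 153 ± 7.32 CPM and Hist1h2bp 120 ± 8.04 CPM. This comparison was made after the values were seen. The submitters' notes name Bowtie2 but not how a fragment that matches several transcripts or genes was counted, and the part of that step in the even counts of near-identical genes was not tested.

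Hist2h2be was the lowest H2B gene, with 21 and 77 footprints (12.9 ± 2.39 CPM), although its annotated transcript is long, with 2192 nucleotides of 3' untranslated region. Annotated length of the 3' region was also set against the counts. Of 68 coding transcripts of clustered genes outside the testis set, 18 had at least 300 nucleotides of 3' untranslated region and 50 had less. For H4 the medians in replicate 2 were 505.5 with a long region and 541 with a short one, for H3 452.5 and 493.5, and for H2B 404 and 378. The ranges of the long and short classes overlapped in each of these 3 types, in both replicates. H2A and H1 had 1 transcript each with a long region. That of Hist3h2a had 225 footprints in replicate 1, above the 85 to 205 of the short class, and 417 in replicate 2, inside its 223 to 440, and that of Hist1h1c lay inside the range of the other H1 genes in both.

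Clustered linker histones kept a fixed order. Hist1h1e, the highest, had 481 and 866 footprints (211 ± 65.8 CPM), and Hist1h1c had 435 and 755 (188 ± 63.3 CPM). Hist1h1d had 384 and 748, Hist1h1b 281 and 594, and Hist1h1a, a subtype of dividing cells, 211 and 476. The 5 genes kept this order in both libraries, with a ratio of the highest to the lowest per codon of 2.22 and 1.77. H1f0, the linker variant that accumulates in differentiated cells, had 237 and 511 footprints (112 ± 21.1 CPM), and H1fx had 219 and 398 (96.5 ± 29.5 CPM). Of the summed H1 level per codon, Hist1h1e took 19.96% ± 1.01, Hist1h1c 18.3% ± 1.40, Hist1h1d 16.4% ± 0.0805, Hist1h1b 12.4% ± 0.778, H1f0 12.2% ± 0.931, H1fx 10.6% ± 0.469 and Hist1h1a 10.1% ± 1.10. Both variants together took 22.8% ± 0.455 of the H1 level per codon, and 11.6% when counts were divided by transcript length.

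Histones known from the germ line were not detected or were lower than most other histones. H2afb1, H2afb2 and H2afb3, short H2A variants of the testis, had no footprint in either library, and a count of 0 there leaves room for levels of at most 1.61 CPM (replicate 1) and 0.570 CPM (replicate 2). The spermatocyte linker histone Hist1h1t had 0 and 2 footprints. Hist1h2aa had 18 and 39 footprints (8.53 ± 1.58 CPM) and Hist1h2ba, the testis H2B, 58 and 164 (31.1 ± 0.0699 CPM). Fragments that match the somatic H2A and H2B genes can fall on these last genes, and their part was not tested.

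The replacement H3 genes H3f3b and H3f3a had the highest footprint counts of single members when all transcripts of a gene were summed. H3f3b (ENSMUSG00000016559) had 723 and 1598 footprints, or 387 CPM in replicate 1 and 304 in replicate 2 (345 ± 59.1). H3f3a (ENSMUSG00000060743), which encodes the same protein, had 530 and 1445 footprints, or 284 and 275 CPM (279 ± 6.57). The ratio of H3f3b to H3f3a per codon was 1.36 in replicate 1 and 1.11 in replicate 2, with all transcripts summed. On coding transcripts alone H3f3b had 394 and 901 footprints against 459 and 1248 for H3f3a, so the order turned, with ratios of 0.858 and 0.722. With the highest transcript of each gene the ratios were 1.91 and 1.58. Per codon these genes reached 2.52 ± 0.431 and 2.04 ± 0.0479 CPM, above every clustered gene in each library, at percentiles 99.5 and 99.2 of the coding genes tested. This rank also rests on the sums: on coding transcripts alone 4 of 67 clustered genes lay above H3f3b in replicate 1 and 1 in replicate 2, and 1 and 0 lay above H3f3a. With the highest transcript of each gene, 29 and 31 lay above H3f3b and 62 and 62 above H3f3a. Together they held 34.4% ± 0.557 of the H3 level per codon, with 34.0% and 34.8% in the replicates. That share rests on summing 11 annotated transcripts: with the highest transcript of each gene it was 11.2%, and per nucleotide of transcript 10.3%. For H3f3a, 86.5% ± 0.168 of the footprints lay on its 6 coding transcripts, the 7 transcripts holding 33 to 102 each in replicate 1. For H3f3b, 55.4% ± 1.33 lay on 2 coding transcripts, and the rest on 2 processed transcripts.

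With all transcripts summed, H2afz (ENSMUSG00000037894), the replacement histone of promoters, led the H2A variants. It had 415 and 1266 footprints, or 222 and 241 CPM (231 ± 12.9). On coding transcripts alone H2afz had 202 and 622 footprints, below H2afy2 (263) in replicate 1 and above it (545) in replicate 2. The highest H2afz transcript had 74 and 245, below the 196 and 378 of H2afx. Per codon, 63 and 62 of 67 clustered genes lay above H2afz with the highest transcript of each gene. The near relative of H2afz, H2afv, which encodes a closely similar protein, had 90 and 260 footprints (48.8 ± 0.850 CPM). Per codon H2afz exceeded H2afv by 4.61 times in replicate 1 and 4.87 times in replicate 2 as a sum of 7 transcripts against 2. The ratio was 2.24 and 2.39 on coding transcripts alone, and 1.23 and 1.35 with the highest transcript of each gene. For H2afz, 48.9% ± 0.323 of the footprints lay on its 3 coding transcripts, while both H2afv transcripts were coding. H2afx, the variant phosphorylated at DNA breaks, had 196 and 378 footprints (88.4 ± 23.4 CPM), and H2afj 118 and 209 (51.5 ± 16.6 CPM).

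The macroH2A genes, whose proteins carry a large extra domain, ranked lower per codon than by count because of their length. H2afy (macroH2A1) had 251 and 879 footprints (151 ± 23.1 CPM), of which 45.5% ± 2.40 lay on 2 coding transcripts out of 8. H2afy2 (macroH2A2) had 263 and 545 footprints (122 ± 26.4 CPM) on a single transcript. Their order depended on the transcripts counted. The ratio of H2afy to H2afy2 per codon was 0.954 in replicate 1 and 1.61 in replicate 2 over all transcripts. It was 0.418 and 0.761 on coding transcripts alone, and 0.240 and 0.394 with the highest transcript, with H2afy2 the higher in both libraries. All H2A variants together held 25.7% ± 2.36 of the H2A level per codon, 15.2% with the highest transcript of each gene and 13.1% per nucleotide of transcript. No variant gene of H2B or H4 met the rule.

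**Figure D2:**
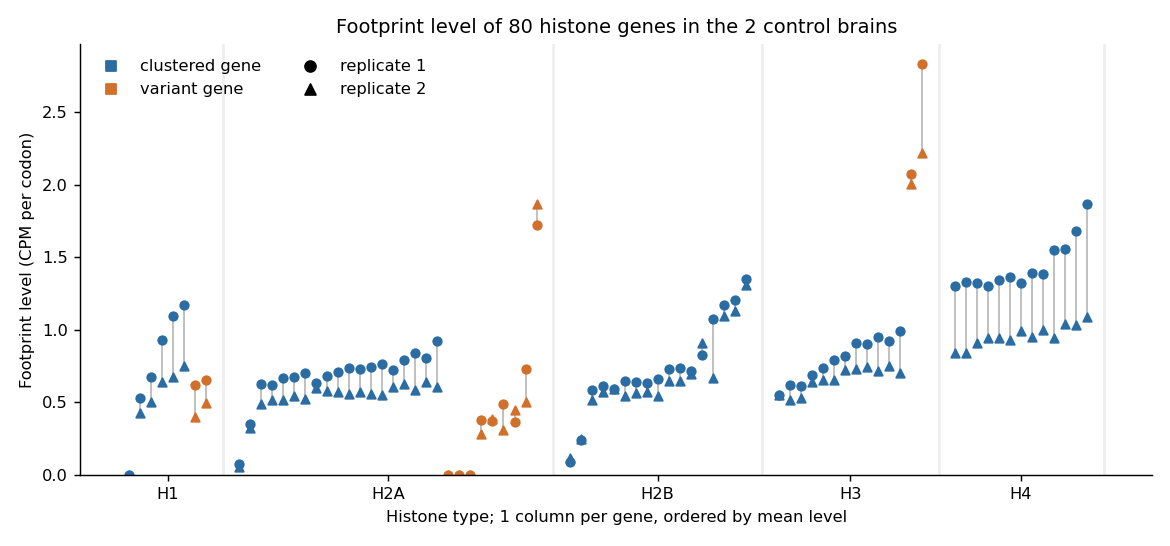
Footprint level in CPM per codon (y axis) of each of the 80 genes, grouped by histone type (x axis) with clustered genes in blue and variant genes in orange; circles are replicate 1, triangles replicate 2, joined by a line. With all transcripts of a gene summed, H3f3a and H3f3b stand above all clustered genes, which they do not with the highest transcript per gene; most clustered genes of a type lie close together, with low outliers in H2A and H2B, and 3 H2A variants and Hist1h1t lie at or near 0.

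Promoter sequences are shown for the clustered gene of highest level in the Hist1 cluster of each type, among genes with 1 coding transcript and 1 listed start, and for the 3 variants of highest level per codon. They are single examples and do not stand for their types, and the Hist1h2bg run holds no CCAAT because its match lies farther upstream. Each run holds the 120 bases before the annotated start, 5' to 3' on the gene's strand, from RefSeq on GRCm38.p6; capitals mark, on either strand, the CCAAT box, the letters TATAAA of a TATA box, the octamer ATTTGCAT and the GC box GGGCGG.
Hist1h1e: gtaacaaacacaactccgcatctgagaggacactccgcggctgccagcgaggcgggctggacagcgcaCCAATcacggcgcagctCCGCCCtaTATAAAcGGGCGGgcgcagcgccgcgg
Hist1h2ak: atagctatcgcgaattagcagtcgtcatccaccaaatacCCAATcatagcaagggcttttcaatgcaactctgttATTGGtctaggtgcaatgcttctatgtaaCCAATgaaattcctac
Hist1h2bg: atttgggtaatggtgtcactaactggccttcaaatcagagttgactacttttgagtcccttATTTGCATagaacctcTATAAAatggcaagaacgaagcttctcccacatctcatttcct
Hist1h3e: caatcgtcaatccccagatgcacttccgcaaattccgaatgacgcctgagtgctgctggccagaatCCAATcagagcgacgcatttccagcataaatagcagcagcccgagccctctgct
Hist1h4h: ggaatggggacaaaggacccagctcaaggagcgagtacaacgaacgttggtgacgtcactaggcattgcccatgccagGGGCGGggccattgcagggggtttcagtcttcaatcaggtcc
H3f3b: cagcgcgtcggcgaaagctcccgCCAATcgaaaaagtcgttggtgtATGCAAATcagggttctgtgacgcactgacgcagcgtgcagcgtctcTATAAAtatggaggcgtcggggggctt
H3f3a: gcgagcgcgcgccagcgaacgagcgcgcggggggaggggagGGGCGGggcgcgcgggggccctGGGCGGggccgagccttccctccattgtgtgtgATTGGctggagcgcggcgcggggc
H2afz: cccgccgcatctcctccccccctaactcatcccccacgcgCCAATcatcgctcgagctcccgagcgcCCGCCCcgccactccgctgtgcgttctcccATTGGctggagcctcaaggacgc
The windows of the Hist1 genes lie at chr13:23622559-23622678 (minus strand) for Hist1h1e, chr13:21753913-21754032 (minus) for Hist1h2ak, chr13:23571280-23571399 (plus) for Hist1h2bg, chr13:23562386-23562505 (minus) for Hist1h3e and chr13:23530924-23531043 (plus) for Hist1h4h. Those of the variants lie at chr11:116024505-116024624 (minus) for H3f3b, chr1:180813606-180813725 (minus) for H3f3a and chr3:137864367-137864486 (plus) for H2afz.

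Counts of these letters were made in the 250 bases before each annotated start, for 72 windows of 71 members; the others were Hist1h2al, Hist1h2ap, Hist1h2bc, Hist2h2be, Hist1h3a, Hist1h3f, Hist2h4, H2afb1 and H2afx. CCAAT, the letters bound by NF-Y, was found on either strand in 33.8% of all 32851 windows of the table. In the clustered groups it was in all 17 H2A windows, all 16 H2B windows and all 6 clustered H1 windows, in 8 of 10 clustered H3 windows, and in 3 of 12 H4 windows. ATTTGCAT, the letters bound by POU2F1 and its relatives, was in 1.60% of all windows, in 6 of 16 H2B windows and in 7 of 17 clustered H2A windows. It was in no clustered H1, H3 or H4 window, and in 1 variant, H3f3b. TATAAA was in 12.4% of all windows, in 29 of 61 clustered windows and in 1 of 11 variant windows. GGGCGG, the letters bound by Sp1, was in 32.7% of all windows, in 9 of 12 H4 windows and in none of 16 H2B windows. None of the 4 motifs contains another. A match is a description of the sequence and not of binding, and many H2A and H2B genes share their upstream region, so their windows are not independent.

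The libraries were then compared gene by gene, since both animals belong to 1 group and a gene's difference shows how reproducible its level is. A gene's counts were set against the TMM-scaled library sizes (trimmed mean of M values) by a binomial test, exact and two-sided. The p-values were adjusted by Benjamini-Hochberg over the 16427 genes whose counts averaged 10 or more, and a gene with an adjusted p under 0.05 was called. It compares 2 libraries and covers counting noise alone. Of 80 members 76 were tested; H2afb1, H2afb2, H2afb3 and Hist1h1t were not. Of these, 50 were called and all 50 were lower in replicate 2. The background was 17.4% of all genes called in either direction, 11.5% lower and 5.95% higher. Many members are near-identical copies, and how fragments that match several genes were counted is not known. The 50 calls may thus not be independent measurements, and the background does not allow for this. Members are dense genes, and 68 of the 76 lay among the 10% of coding genes with the highest CPM per codon. Of all genes in that densest class 58.3% were called, and their median log2 ratio of replicate 2 over replicate 1 was -0.27. The values were 70.6% and -0.46 for the 68 members in that class, and 65.8% and -0.45 for all 76 members tested. Cell type markers moved too: 4 of 6 neuronal genes were called lower, their summed share being 0.531% in replicate 1 and 0.429% in replicate 2, and 2 of 4 glial genes of the astrocyte list were called lower (0.173% and 0.149%). Of 4 oligodendrocyte genes, 2 were called higher and 1 lower (0.0696% and 0.0911%). No listed brain marker was at 0. The part of density and of these cell types in the members' shift was not tested. With the common dispersion of the same 2 libraries, edgeR's exact test called 0 members, with 12 at an unadjusted p under 0.05. Of all 16427 genes it called 11, or 0.0670%, so few calls were to be had in any group.

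Median ratios ran from -0.67 for H4 to -0.23 for H2B among the clustered types. All 13 H4 genes were called, with log2 ratios from -0.90 to -0.55 and a median of -0.67. The lowest ratios of all members were those of Hist1h4h at -0.90, Hist2h4 at -0.84 and Hist1h4d at -0.83; Hist1h4h had 194 CPM in replicate 1 against 113 in replicate 2, with an adjusted p from the exact test of 6.44e-18. All 5 clustered H1 genes tested were called, with a median of -0.66, and so were both variants, H1f0 at -0.51 and H1fx at -0.76. Of the clustered H2A genes 16 of 19 were called, with a median of -0.47. Of the clustered H3 genes 7 of 12 were called, with a median of -0.39. The shares called were 100% for H4 and clustered H1, 84.2% for clustered H2A and 58.3% for clustered H3. In the densest 10% of coding genes 58.3% were called, and of all genes 17.4%. Near-identical copies may share fragments, so the calls within a type may not be independent.

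Clustered H2B genes had the median nearest to 0. It was -0.23, and 3 of 17 were called: Hist1h2bh at -0.38, Hist1h2bj at -0.41 and Hist3h2ba at -0.80. The 17.6% called lies near the 17.4% of all genes, against 58.3% in the densest 10% of coding genes. Hist3h2ba stood apart from the other H2B genes, with 136 CPM in replicate 1 and 85.0 in replicate 2, and its neighbour Hist3h2a had the lowest ratio among the clustered H2A genes, at -0.73. The highest ratios of all members tested were those of Hist2h2be at 0.24, H2afy at 0.19 and Hist1h2bp at 0.01, none of them called. In 9 head-to-head pairs of a clustered H2A and an H2B gene, defined by overlapping windows on opposite strands, the H2A gene had the lower log2 ratio in all 9, by 0.03 to 0.53. Hist3h2a and Hist3h2ba were not among these pairs, and there the H2B gene had the lower ratio. Per-gene counts of near-identical copies are uncertain, so these values describe the types more safely than single genes. The difference between types was not tested.

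Among variants, 6 of 10 tested genes were called, all lower in replicate 2. They were H1f0, H1fx, H2afx at -0.67, H2afj at -0.79, H2afy2 at -0.57 and H3f3b at -0.48. For H3f3b the exact test gave an adjusted p of 3.32e-11, but it was not called when its highest transcript stood for the gene, at a log2 ratio of -0.31 (adjusted p = 0.106). H2afz at -0.01, H2afv at -0.09, H3f3a at -0.17 and H2afy were not called. Relative to plain library totals, TMM scaling lowered log2 ratios by 0.13. With library totals the median log2 ratio was 0.13 over all genes and -0.33 over the members, 38 members were called lower, and H2afy was called higher at 0.31.

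**Figure D3:**
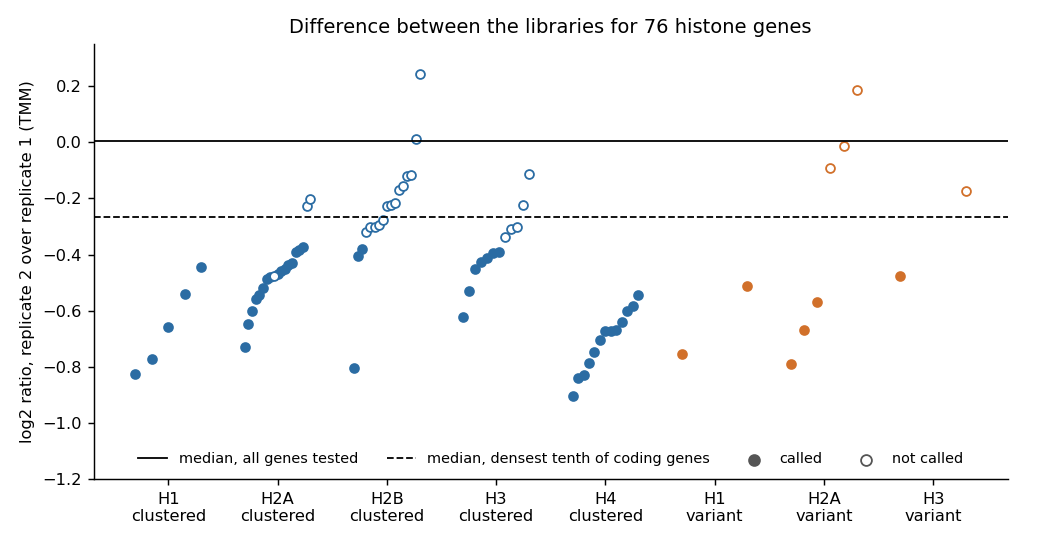
Log2 ratio of replicate 2 over replicate 1 after TMM scaling (y axis) for the 76 tested genes by type and class (x axis); filled points were called by the exact binomial test, open points were not, and lines mark the median of all genes tested (solid) and of the densest 10% of coding genes (dashed). All H4 and H1 points lie below both lines, while most H2B points are open and lie around the dashed line.

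Genes that make, deliver or remove histones and their mRNAs were described from lists. Of 24 listed symbols for processing and turnover of histone mRNA, 23 matched a gene and 22 were tested. By the exact binomial test 1 was called higher and 4 lower in replicate 2, with a median log2 ratio of -0.01. The 22.7% called lies near the 17.4% of all genes, with 18.2% called lower against 11.5%. Slbp, which binds the stem-loop, had 160 and 596 footprints (99.5 ± 19.5 CPM). Of the U7-specific proteins, Lsm11 had 265 and 640 footprints (132 ± 14.4 CPM) and was called lower at -0.35, while Lsm10 had 20 and 48 (9.92 ± 1.13 CPM). Npat, the S-phase activator of histone clusters, had 24 and 84 footprints (14.4 ± 2.198 CPM). Ints3, of the Integrator complex, had 130 ± 24.1 CPM and was not called. The others called were Snrpb (197 ± 22.2 CPM, log2 ratio -0.36), Cstf2t (-0.48) and Snrpd3 (-0.42), all lower, and Snrpe (60.4 ± 28.6 CPM, 0.87), which was higher.

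Of 29 listed symbols for histone chaperones and deposition factors, 28 matched a gene, and these were tested. Among them 2 were called higher and 4 lower, with a median log2 ratio of -0.03. The 21.4% called lies near the 17.4% of all genes, with 14.3% called lower against 11.5%. The most abundant were the nucleolar proteins Ncl (566 ± 22.1 CPM, called lower at -0.21) and Npm1 (283 ± 19.0 CPM), followed by Set (258 ± 8.52 CPM). Hira, which deposits replacement H3, had 110 and 316 footprints (59.5 ± 0.800 CPM), and Chaf1a, of the complex that deposits H3 at replication forks, had 34 and 77 (16.4 ± 2.53 CPM). Atrx (0.49), which works with Daxx in depositing replacement H3, and Nasp (0.33), a chaperone of H3 and H4, were called higher; Nap1l4 (-0.43), Supt16 (-0.36) and Vps72 (-0.42) were called lower.

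Few S-phase and proliferation genes were called. Of 26 genes, 2 were called higher (Cdk1 at 1.08 and Ccnb1 at 1.03) and 0 lower by the exact binomial test, with 7 at an unadjusted p under 0.05 and a median log2 ratio of 0.29; edgeR's exact test called 0. The 7.69% called in either direction lies below the 17.4% of all genes. All of these calls were higher, against 5.95% of all genes, and 0% were called lower against 11.5%. Among coding genes the share called rose with CPM per codon, and the part of level in the low share here was not tested. The difference from the histones was not tested. After Pcna, the most abundant were Rrm1 at 66.01 ± 0.176 CPM and Mcm7 at 61.2 ± 13.8 CPM. Both genes called encode parts of the kinase that drives entry into mitosis.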

How the data were processed

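Ribosome-protected fragments from brain polysomes of 2 control mice were analysed. The authors deposited whole-number counts per annotated transcript, 1 column per replicate, with no normalization, and annotated lengths in nucleotides per the file headers. Per the submitters' processing notes, Trimmomatic 0.36, Bowtie2 2.2.6, SAMtools and build GRCm38.p4 were used, with no roles stated. The counting rule, the annotation release, strand and the handling of multi-matching fragments are not given in the sources used here. Antisense, overlapping and near-identical genes are therefore uncertain.

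Counts of a gene's transcripts were summed. Intervals are exact (Clopper-Pearson, 95%), a count of 0 was read as up to 3 counts, and both cover counting error only, since PCR copies are not independent. The libraries were compared with the exact binomial test on TMM-scaled sizes (edgeR 4.0.16, SciPy 1.17.1). It was tested on simulated data that held counting noise alone, which cannot show how it behaves with variation between animals. Log2 ratios used a prior of 0.5 CPM. A quasi-likelihood test has no contrast here. Alternatives were protein coding transcripts alone, the highest transcript per gene, other lengths, filters and scalings (DESeq2 1.42.0), and 1 replicate alone. Named genes were all variants above the count minimum, the 4 highest clustered genes per type, the 3 highest and 3 lowest log2 ratios, and in each list the 3 highest genes and those called. Further genes were named after their values were seen. Members and lists were chosen with earlier results of these data known. RefSeq symbols and synonyms matched 78 members.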

Additional observations from a re-analysis of the deposited data

Results flagged for a closer look

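Symbols that fit the histone names but have no protein coding transcript lie outside the members, and 7 of 9 had footprints above the limit that a count of 0 allows in both libraries. Hist1h2aj, an unprocessed pseudogene within the Hist1 cluster, had 156 and 324 footprints, or 72.6 ± 15.5 CPM (SD, n = 2), inside the range of the coding H2A genes. Hist3h2bb-ps, a processed pseudogene, had 120 and 268 footprints (57.6 ± 9.44 CPM). Hist2h2bb, annotated as a long non-coding RNA, had 113 and 258 footprints (54.8 ± 8.13 CPM). The H3 copies H3f3c (30.3 ± 7.97 CPM), H3f3a-ps2 (29.1 ± 2.45 CPM) and H3f3a-ps1 (20.7 ± 5.08 CPM) and the macroH2A copy H2afy3 (24.5 ± 4.78 CPM) are processed pseudogenes. The 9 symbols together held 571 and 1443 footprints, which equal 3.35% and 3.79% of the members' own. The part of fragments that match both a gene and its copy was not tested.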

How the results depend on the processing

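No paired analysis was possible because the samples form 1 group. With protein coding transcripts alone, the clustered share was 0.879% of footprints and the variant share 26.7% of H3 and 19.7% of H2A. With the highest transcript per gene these values were 1.23%, 11.2% and 15.2%. Without division by length, variants held 32.0% of H2A and 20.6% of H1, and per nucleotide of transcript 10.3% of H3, 13.1% of H2A and 11.6% of H1. With 1 replicate at a time, the clustered share ran from 0.581% to 0.749%, the variant share from 0.142% to 0.163%, and the variants' part from 34.0% to 34.8% of H3, 24.1% to 27.4% of H2A and 22.5% to 23.1% of H1. Members called numbered 39 to 51 under 6 other settings against 50. With edgeR's exact test, whose dispersion came from the same 2 libraries, 0 members were called, and 11 of all 16427 genes. With library totals 38 of the 50 were called again, and with the highest transcript per gene 39. Adding symbols without a coding transcript, chosen after seeing the data, gave shares of 0.683% and 0.163%. Depth limits single genes more than types, since the 13 H4 genes, for example, had 252 to 362 footprints each in replicate 1.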
